A study of Mus musculus with 7 samples.

Results

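The barcodes described here are those of the cultured BB-p53n OPC library in which fewer than 2000 genes were detected, 918 of the 10047 deposited barcodes (9.14%). They were chosen by the number of detected genes alone, so their low gene and UMI numbers describe the choice and are not a result. The barcodes they are compared with are the 8917 that had 2000 to 8000 detected genes, called mid-range barcodes from here on, and a further 212 barcodes had over 8000. The mid-range barcodes are set by the number of genes alone and are more than the study went on to analyse. Of them, 1954 had at most 5% mitochondrial UMIs, and results that turn on this choice are given against those too. BB-p53n OPCs are oligodendrocyte progenitor cells isolated through CD140a from early postnatal *Trp53* fl/fl C57BL/6 pups of either sex and infected with a retrovirus that carries PDGFB and Cre, so that all cells of the library were meant to lack *Trp53* and to overexpress PDGFB. The nuclei came from cultured primary cells and, unlike the tumor samples, went through isolation without debris removal or filtering. The library is 1 sample with no replicate, and every barcode in it shares that source. No test was therefore run, and all intervals are exact 95% intervals that cover counting error only. The 6 samples of early and late tumors were not analysed here.

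A droplet in single-nucleus RNA sequencing can hold a whole nucleus, a nucleus with cytoplasm attached, a piece of either, or free RNA, and each of these has its own mixture of transcripts. Nuclei are rich in unspliced transcripts of long genes and in long noncoding RNAs held there (lncRNAs) such as *Malat1*, a speckle-associated transcript. Cytoplasm is rich in short spliced mRNAs of ribosomal proteins and metabolic enzymes. Mitochondrial transcripts are made inside the organelle, and mRNAs of secreted and membrane proteins are translated at the endoplasmic reticulum (ER). A count of detected genes does not separate these mixtures, and fewer cells of a kind and less RNA per barcode cannot be told apart in it.

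The 918 low-gene barcodes held 1757350 of the 154375410 UMIs of the library (1.14%). Their detected genes ran from 104 to 1999 with a median of 1050, and their UMIs from 500 to 4928 with a median of 1717, against medians of 4718 genes and 13771 UMIs in the mid-range barcodes. At equal depth the difference in detected genes was small. When every barcode was thinned at random to 500 UMIs, the median was 387 genes in low-gene and 421 in mid-range barcodes, and 424 and 437 when mitochondrial genes were taken out before thinning, which left out 111 low-gene barcodes. Next to the cutoff, the 33 barcodes of 1900 to under 2000 genes had a median mitochondrial share of 11.8%. The 35 barcodes of 2000 to under 2100 genes had 8.06%. Of non-mitochondrial UMIs, the median *Malat1* share was 1.41% and 1.09%, and the median ribosomal protein share 6.23% and 8.46%, in the same order. These values are given with no test, since the cutoff set them apart. By mitochondrial share and at 500 UMIs, the median was 400 to 412 genes in the low-gene barcodes with under 15% mitochondrial UMIs, 323 and 324 in those of 15 to 50%, and 130 in those of at least 50%, in the ranges defined further on.

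Mitochondrial transcripts were the most prominent difference in abundance. All 13 protein-coding mitochondrial genes, which encode subunits of the respiratory chain, were higher in low-gene barcodes. Summed over barcodes, 19.5% of UMIs were mitochondrial (19.4 to 19.5%) against 6.34% in mid-range barcodes, a ratio of 3.07. Across barcodes the share was far more spread than in the mid-range ones. Its quartiles were 4.43% and 29.3% around a median of 10.96%, with a maximum of 90.9%, while the quartiles of the mid-range barcodes were 5.15% and 7.32% around 6.16%. At the low end, 67 low-gene barcodes (7.30%) had under 0.5% mitochondrial UMIs, against 5 of the 8917 mid-range ones.

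Summed over all low-gene barcodes, the pool of mitochondrial transcripts kept nearly the same internal composition while its size changed. *mt-Atp6*, a subunit of ATP synthase, made up 29.5% of mitochondrial UMIs in low-gene and 28.1% in mid-range barcodes. Its level was 57417 counts per 1000000 UMIs (CPM) against 17806. Ratios to the mid-range barcodes ran from 2.61 for *mt-Co1*, a catalytic subunit of cytochrome c oxidase, to 4.15 for *mt-Nd6* (3.89 to 4.42), a complex I subunit and the one protein-coding gene transcribed from the other mitochondrial strand. *mt-Nd6* rested on 1004 UMIs, 0.293% of the mitochondrial pool against 0.217% in mid-range barcodes. Its share differed between the ranges defined further on, at 0.331% in the RP-poor range of 15 to 50% and 0.132% in the RP-rich range of 1 to 15%. In the latter, *mt-Nd4l* made up 0.903% of the pool against 0.416% in mid-range barcodes, and *mt-Nd2* 6.18% against 7.76%. When members were restricted to at most 5% mitochondrial UMIs, the direction turned for *mt-Atp6* (ratio 0.298), *mt-Co1* (0.395) and *mt-Nd6* (0.384), as that restriction itself dictates.

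**Figure D1:**
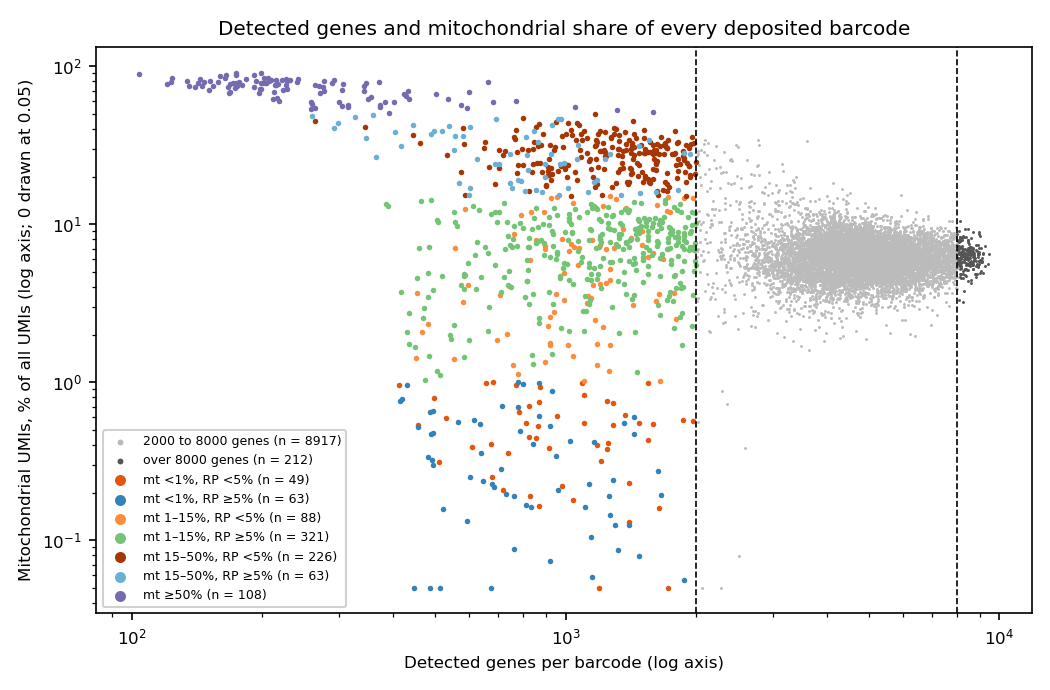
Every deposited barcode by its number of detected genes (x, log axis) and the mitochondrial percent of its UMIs (y, log axis), with the 2000 and 8000 gene cutoffs as dashed lines. Colours give ranges of mitochondrial (mt) and ribosomal protein (RP) share among the low-gene barcodes, which fan out from under 0.5% to 90.9% mitochondrial UMIs, while the grey mid-range barcodes have quartiles of 5.15% and 7.32%.

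Per gene, 6470 genes had at least 50 UMIs observed in the low-gene barcodes or expected there from the mid-range level. Of these, 164 (2.53%) were at least 2 times higher and 64 (0.989%) at most 0.5 times the mid-range level, with a median ratio of 0.848. Because mitochondrial transcripts took up more of the total, the share of all other genes was pushed down. With non-mitochondrial UMIs as the denominator, the median ratio was 0.995, and 170 of 6164 genes (2.76%) were higher and 6 (0.0973%) lower. The count of lower genes thus rested mostly on the denominator. Of the higher genes, many reached 50 UMIs only because they were high in low-gene barcodes, and such genes had to differ. Among the 5658 genes that passed on the mid-range level alone, 24 (0.424%) were higher and 6 (0.106%) lower on the non-mitochondrial scale.

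The 24 genes higher at a level that did not depend on the low-gene barcodes, named here after their values were seen, were led by *Ctnna3*, the alpha-T-catenin gene, which spans 1580 kb. It had 853 UMIs, 485 CPM against 58.4, a ratio of 8.31 (7.73 to 8.91). This and the following ratios are on the scale of all UMIs. On the non-mitochondrial scale, on which the 24 were called, *Ctnna3* was at 9.66 times. Some of the 24 were under 2 times on all UMIs, down to 1.74. *Gm38505*, an lncRNA, had 1495 UMIs and a ratio of 8.15 (7.73 to 8.60), and *Wdr17*, a WD repeat gene, had 593 UMIs and a ratio of 7.61 (6.99 to 8.28). *Lrrc4*, a postsynaptic adhesion gene, was at 5.07 times, *Fgfr2*, a fibroblast growth factor receptor, at 2.78 times and *Igf2r*, the receptor for IGF2 and mannose 6-phosphate, at 2.46 times. Of the 24 genes, 4 were lncRNAs and 19 overlap a coding gene on the opposite strand, as *Ctnna3* overlaps *Lrrtm3* and *Lrrc4* overlaps *Snd1*. Among all 6457 genes compared outside the mitochondrial ones on the scale of all UMIs, 194 (3.00%) were lncRNAs. An opposite-strand coding gene overlaps 2173 of the 6457 (33.7%). These shares are over a wider set than the 5658 genes from which the 24 were drawn. The wider set includes genes that passed only through the low-gene barcodes, and 102 of its 194 lncRNAs were themselves at least 2 times higher. The shares among the 5658 are not given here.

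Over all genes compared, those with the highest ratios were of very low level, and each reached 50 UMIs only through the low-gene barcodes. The highest was *4933411O13Rik*, an lncRNA on chromosome 16 (66689388 to 66707959, plus strand, GRCm39), with 50 UMIs at 28.5 CPM against 1.72 CPM in mid-range barcodes, a ratio of 16.5 (11.9 to 22.5). It lies wholly within the longer gene *Cadm2*, a cell adhesion gene on the minus strand, and none of its exons touches an exon of *Cadm2*. *Aspn*, which encodes the matrix protein asporin, had 83 UMIs and a ratio of 14.3 (11.2 to 18.1). *Ogn*, which encodes osteoglycin, had 52 UMIs and a ratio of 13.4 (9.81 to 18.1). Both lie within *Cenpp*, a centromere protein gene on chromosome 13 (49617492 to 49806396, minus strand). Of their annotated exons, 4 of 13 in *Aspn* and 1 of 15 in *Ogn* touch exons of *Cenpp*.

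The other 7 of the 10 genes with the highest ratio were *4930587E11Rik* (14.1), *BC048559* (12.7), *Gm15577* (12.7), *Prss48* (12.4), *Gm43376* (11.9), *4930532I03Rik* (11.9) and *Ccdc7a* (11.7). Apart from *Ccdc7a*, each lies within a coding gene of the opposite strand, namely *Cntn3*, *Cep57l1*, *Negr1*, *Sh3d19*, *Nbea* and *Ppfia2*. In *BC048559* 1 of 13 annotated exons touches an exon of the host, in *Gm43376* 1 of 3, and in the rest none. The host genes were higher by less. On the non-mitochondrial scale the 8 named hosts ran from 1.14 times for *Sh3d19* to 1.70 for *Cntn3* (1.46 to 1.98), and in the RP-poor range with under 1% mitochondrial UMIs, defined further on, *Cntn3* was at 3.61 (2.20 to 5.57) and *Cenpp* at 3.10 (2.02 to 4.54). In all low-gene barcodes *Cadm2* was at 1.32 times the mid-range level (1.27 to 1.37) where *4933411O13Rik* was at 19.2, *Cenpp* at 1.49 (1.30 to 1.69) where *Aspn* was at 16.6, and *Nbea* at 1.15 (1.06 to 1.24) where *Gm43376* was at 13.9.

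Sums over annotation classes, which use no filter on level, ran the same way for lncRNAs but not for coding genes as a whole. The summed UMIs of all 4420 lncRNAs that overlap a coding gene of the other strand only were 2.62 times the mid-range level as non-mitochondrial CPM (2.59 to 2.65). The 5899 lncRNAs with no coding gene at their position, without *Malat1*, *Neat1*, *Xist* and *Meg3*, stood at 1.55 times (1.52 to 1.57). Coding genes with a coding gene on the other strand stood at 0.948 times (0.945 to 0.951), and coding genes with no other coding gene at their position at 0.968 times. Genes of families that glial cells are not known to use were also higher in sum. The 1578 olfactory, vomeronasal, keratin-associated and beta-defensin genes with no other coding gene at their position had 165 UMIs, 117 non-mitochondrial CPM against 55.2, a ratio of 2.11 (1.80 to 2.47). The strand setting of the counting is not given in the sources used here, so the values of genes that overlap an opposite-strand partner are uncertain.

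Markers of other cell types were checked against the same annotation. The microglia and macrophage list (9 genes) had 74 UMIs in low-gene barcodes, a ratio of 5.55 (4.32 to 7.03). Of these, 58 UMIs were *P2ry12*, a purinergic receptor of microglia, with 33.0 CPM against 5.25 and a ratio of 6.29 (4.73 to 8.22). *P2ry12* (chromosome 3, 59123682 to 59170429, minus strand) lies within *Med12l*, a Mediator subunit gene of the plus strand that was at 0.903 times the mid-range level on the non-mitochondrial scale (0.743 to 1.09). Of the 12 annotated exons of *P2ry12*, 2 touch exons of *Med12l*. The other UMIs of the list were 10 of *Cx3cr1* and 6 of *Csf1r*. On the non-mitochondrial scale *Cx3cr1* was at 4.33 times (2.04 to 8.11), and it overlaps no coding gene of the other strand. *Csf1r* was at 7.68 times (2.73 to 17.5) and overlaps *Hmgxb3* of the other strand, which 1 of its 36 annotated exons touches in an exon. The remaining members *Aif1*, *Tmem119*, *C1qa*, *C1qb*, *Ptprc* and *Tyrobp* all had 0 UMIs.

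The erythroid list also had its UMIs in few of its genes. All of its 26 UMIs were *Alas2*, an enzyme of heme synthesis, with a ratio of 6.12 (3.94 to 9.13), and *Hba-a1*, *Hba-a2*, *Hbb-bs* and *Hbb-bt*, the adult globins, had 0 UMIs. *Alas2* lies on the X chromosome within *Apex2* of the other strand, and 7 of its 34 annotated exons touch exons of *Apex2*. The fibroblast and pericyte list had 4 UMIs over 8 genes, and the endothelial list 23 UMIs, a ratio of 1.19 (0.750 to 1.79). The globins and 6 of the 9 microglia and macrophage markers were therefore at 0, and the part of other cells in any result was not tested further.

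The 918 barcodes were not of one kind. Their share of ribosomal protein UMIs among non-mitochondrial UMIs had quartiles of 2.87% and 12.5%, against 8.17% and 10.8% in mid-range barcodes. After these values had been seen, the barcodes were divided into 7 ranges by mitochondrial share (edges at 1, 15 and 50%) and, below 50%, by ribosomal protein (RP) share (edge at 5%), here called RP-poor and RP-rich. The ranges are divisions of a continuous measure and not cell types. Of the 810 barcodes under 50% mitochondrial UMIs, 84 had an RP share of 4 to 6%, and 45 of the 918 had a mitochondrial share of 40 to 60%. RP-poor barcodes numbered 49 with under 1%, 88 with 1 to 15% and 226 with 15 to 50% mitochondrial UMIs. RP-rich barcodes numbered 63, 321 and 63 in the same order, and 108 barcodes had at least 50% mitochondrial UMIs. Since RP and mitochondrial shares set the ranges, they are not used as results between them, and levels in the ranges are given as non-mitochondrial CPM.

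The RP share and *Malat1* moved in opposite directions. The median *Malat1* share of non-mitochondrial UMIs was 4.18%, 4.57% and 3.41% in the RP-poor ranges, in order of rising mitochondrial share. In the RP-rich ranges it was 0.130%, 0.720% and 0.659%, in the range of at least 50% mitochondrial UMIs 0.396%, and in the mid-range barcodes 0.849%. Thus all RP-poor ranges were well above the mid-range barcodes and the RP-rich range with under 1% mitochondrial UMIs was far below them. Summed over all 918 barcodes, *Malat1* stood at 21597 CPM against 9212, a ratio of 2.34 (2.32 to 2.37).

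**Figure D2:**
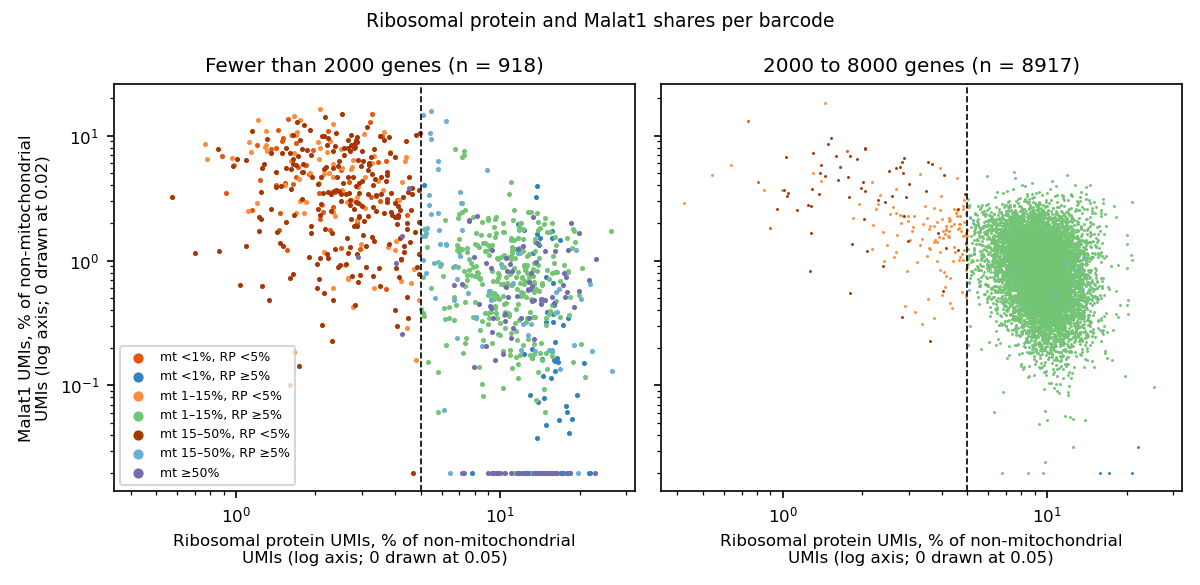
Share of ribosomal protein UMIs (x, log axis) and of *Malat1* UMIs (y, log axis) among the non-mitochondrial UMIs of each barcode, for the 918 low-gene barcodes (left) and the 8917 mid-range barcodes (right), coloured by range, with the 5% edge dashed. RP-poor low-gene barcodes sit at *Malat1* medians of 3.41% to 4.57%, while nearly all mid-range barcodes lie right of the edge, with a *Malat1* median of 0.849%.

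The RP-poor ranges were high in *Malat1* and in long genes of the OPC list. The nuclear lncRNA list stood at 5.12, 4.84 and 4.04 times the mid-range barcodes in order of rising mitochondrial share. That list was mostly *Malat1*, which held 37953 of its 41226 UMIs in all low-gene barcodes, where 3 of its 10 tested members were at least 2 times higher and the median member was at 1.18 times on the scale of all UMIs. *Tsix*, the antisense partner of *Xist*, was at 2.77, 10.8 and 11.1 times in order of rising mitochondrial share, on 2, 15 and 46 UMIs. The interval in the RP-poor range with under 1% mitochondrial UMIs was 0.335 to 10.0. In the RP-poor ranges under 15% *Tsix* was below the minimum of UMIs set for a range. In that of 15 to 50% mitochondrial UMIs it passed only through its own level there and had to differ. *Neat1*, the scaffold of paraspeckles, was at 2.32, 3.72 and 1.76 times in the 3 ranges. The OPC list was higher as well, at 1.57, 1.58 and 1.47 times, through its long genes. *Lhfpl3*, a tetraspan membrane protein gene typical of OPCs, was at 1.95, 2.20 and 1.94 times, and *Sox6*, a transcription factor of the lineage, at 1.93, 1.71 and 1.57 times. *Olig1*, a lineage transcription factor with a short single-exon gene, was by contrast at 0.10, 0.35 and 0.35 times.

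Lists of short, highly spliced or cytosolic mRNAs were low in the same barcodes. Heat shock genes were at 0.21, 0.29 and 0.41 times, nuclear-encoded subunits of oxidative phosphorylation (OXPHOS) at 0.31, 0.33 and 0.42 times, and cytoskeletal and cytosolic genes at 0.18, 0.29 and 0.27 times. The primitive OPC list was at 0.22, 0.39 and 0.42 times, mostly through *Ppp1r14b*, a phosphatase inhibitor with the most UMIs of that list, at 0.15, 0.25 and 0.29 times. Per gene, 224 of 953 genes (23.5%) were at least 2 times higher and 318 (33.4%) at most 0.5 times in the RP-poor range with under 1% mitochondrial UMIs, and 264 (12.2%) and 557 (25.7%) of 2168 in that of 1 to 15%. In the RP-poor range of 15 to 50% mitochondrial UMIs, 555 of 5616 genes (9.88%) were at least 2 times higher and 1089 (19.4%) at most 0.5 times. In each range a gene could enter the comparison through its own high level there, and such genes had to differ. Among genes that reached the minimum of 20 UMIs on the mid-range level alone, an alternative chosen after seeing the data, 63 of 630, 66 of 1623 and 144 of 4725 were at least 2 times higher in the RP-poor ranges in order of rising mitochondrial share, and the counts of lower genes stayed at 318, 557 and 1089.

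**Figure D3:**
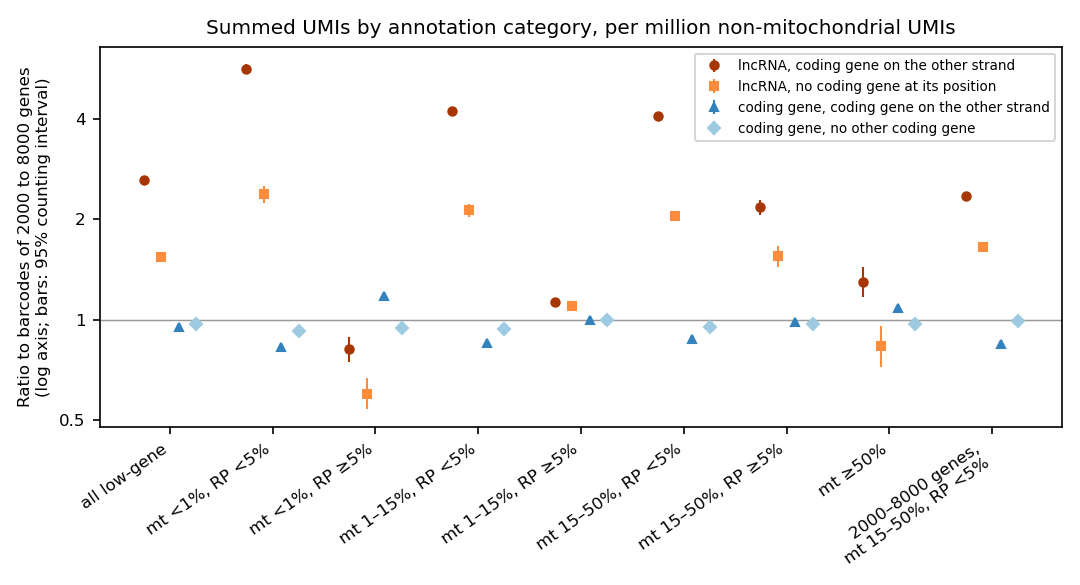
Ratio of summed non-mitochondrial CPM to the mid-range barcodes (y, log axis) for lncRNAs and coding genes by whether a coding gene lies on the other strand, in all low-gene barcodes, in their 7 ranges and in mid-range barcodes of 15 to 50% mitochondrial and under 5% ribosomal protein UMIs. Bars are 95% counting intervals, and lncRNAs opposite a coding gene reach 5.64 times in the RP-poor range with under 1% mitochondrial UMIs.

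The RP-rich barcodes with under 1% mitochondrial UMIs showed the opposite order. These 63 barcodes had a median of 779 detected genes and 1132 UMIs, and 242 of 1126 genes (21.5%) were at least 2 times higher and 276 (24.5%) at most 0.5 times. Over their 84646 non-mitochondrial UMIs, *Lrrc4c*, *Dpp10*, *Fgf14* and *Nkain2*, all long neural genes, had 0 UMIs, where the mid-range level was 370, 248, 255 and 352 non-mitochondrial CPM. A count of 0 here allows up to 3 UMIs, or 35.4 non-mitochondrial CPM. The OPC list was at 0.21 times the mid-range level, the neuron list at 0.20 times and the nuclear lncRNA list at 0.39 times. *Lhfpl3* was at 0.08 times and *Sox6* at 0.11 times, whereas *Olig1* was at 1.13 times and *Olig2* at 0.91 times.

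In the same 63 barcodes cytosolic and metabolic mRNAs were high. OXPHOS genes were at 1.72 times, cytoskeletal and cytosolic genes at 1.74 times, the hypoxia and glycolysis list at 1.75 times and heat shock genes at 1.56 times. *Gapdh* and *Aldoc*, both glycolytic enzymes, stood at 2.23 and 2.25 times. ER mRNAs did not follow: the ER stress list was at 0.77 times and the ER and secretory list at 0.50 times, with *Hspa5*, the ER chaperone BiP, at 0.11 times and *Hsp90b1* at 0.23 times. The highest single genes compared were *Chmp2a* (4.25 times, 22 UMIs), an ESCRT-III subunit, and *Mt3* (3.93 times, 20 UMIs), a metallothionein of the brain. They were named by their ratio within the range after the values had been seen and passed only through their own level in it. On the mid-range level alone, 73 of 767 genes were higher and 276 lower.

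Gene span ordered these differences. Among protein-coding genes other than those of ribosomal proteins, the median log2 ratio in the RP-poor range with under 1% mitochondrial UMIs rose from -2.27 for 47 genes under 5 kb to 0.98 for 208 genes over 300 kb. In the RP-poor range of 15 to 50% it rose from -1.60 to 0.77. In the RP-rich range with under 1% it fell from 0.92 (110 genes) to -2.81 (131 genes). The RP-rich ranges of 1 to 15% and 15 to 50% varied less, at 0.12 and -0.07 for the shortest genes and -0.22 and -0.16 for the longest. With genes compared on the mid-range level alone, the RP-poor ranges still rose, from -2.27 to 0.95, -1.59 to 0.77 and -1.60 to 0.76, and the RP-rich range with under 1% still fell, from 0.84 to -2.82. In the range of at least 50% mitochondrial UMIs too few genes reached the minimum that way for medians in every class. These are medians across genes, which are not independent replicates.

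**Figure D4:**
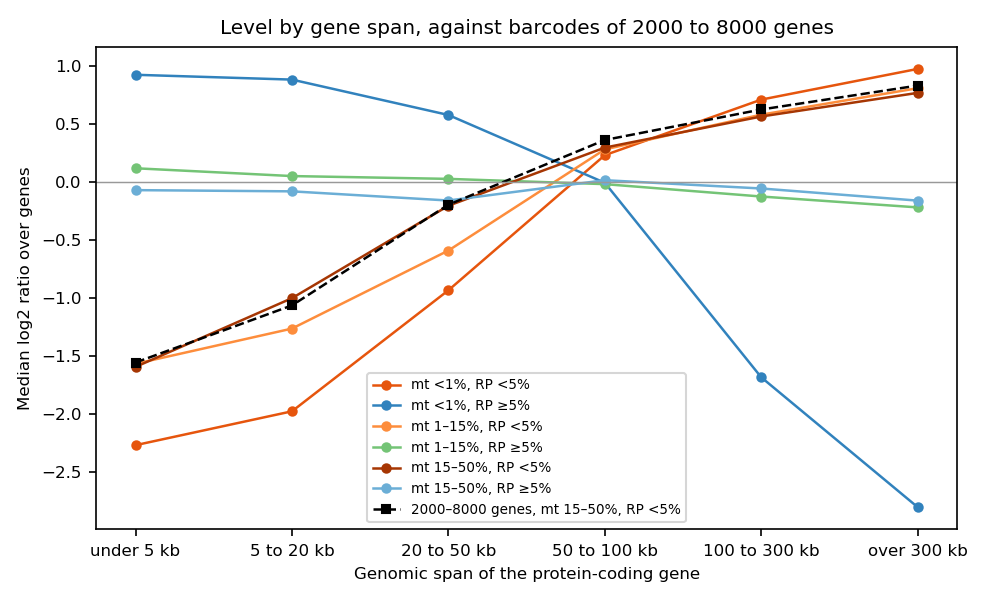
Median log2 ratio to the mid-range barcodes as non-mitochondrial CPM (y) over protein-coding genes in 6 classes of genomic span (x), for 6 ranges of low-gene barcodes, without that of at least 50% mitochondrial UMIs, and, dashed, for 61 mid-range barcodes of 15 to 50% mitochondrial and under 5% RP UMIs against the other mid-range ones. The 3 RP-poor ranges rise with span, the RP-rich range with under 1% mitochondrial UMIs falls from 0.92 to -2.81, and the RP-rich range of 1 to 15% runs from 0.12 to -0.22.

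Mid-range barcodes of like mitochondrial and RP shares showed a pattern like that of the RP-poor ranges. They were picked by the same edges, set after the values had been seen, so this is a description and not an independent recurrence. The 61 mid-range barcodes with 15 to 50% mitochondrial and under 5% RP UMIs had a median of 2488 detected genes and 6223 UMIs, and a median *Malat1* share of 3.62%. Against all mid-range barcodes, the nuclear lncRNA list in them was at 3.68 times, the OPC list at 1.58 times, heat shock genes at 0.45 times and replication histones at 0.33 times. Their span medians ran from -1.56 to 0.83. Against the other mid-range barcodes, 334 of 4366 genes (7.65%) were at least 2 times higher and 879 (20.1%) at most 0.5 times. The lncRNAs opposite a coding gene stood at 2.35 times in them and at 4.08 times in the low-gene barcodes of the same mitochondrial and RP shares.

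The barcodes of at least 50% mitochondrial UMIs had the fewest detected genes. These 108 barcodes had a median of 218 detected genes and 980.5 UMIs, and at 500 UMIs a median of 130 genes against 421 in mid-range barcodes. The mitochondrial share that defines them itself lowers that number. With mitochondrial genes taken out before thinning, the median was 433 against 437, in the 11 of these barcodes deep enough. Outside the mitochondrial genes they held 35365 UMIs, in which the ER and secretory list, fixed after these values were seen, stood at 2.39 times the mid-range level and the ER stress list at 1.70 times. The genes with the highest ratios in them are given as a description that supports nothing, since they passed only through their own level in these barcodes and had to differ. *Ncan* and *Bcan*, chondroitin sulfate proteoglycans of the brain matrix, were at 5.44 times (30 UMIs) and 4.84 times (26 UMIs). *Tnc*, the matrix glycoprotein tenascin C, was at 4.65 times (37 UMIs) and *Tmed9*, a cargo receptor of the early secretory pathway, at 4.74 times (27 UMIs). The ER chaperones *Hspa5* and *Hsp90b1* were at 2.56 and 2.38 times.

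The highest ratio in these 108 barcodes was not a secretory gene. *Camk1d*, a calcium-dependent kinase gene of 421 kb, stood at 8.82 times (55 UMIs) and *Cmss1* at 5.77 times (40 UMIs). The lowest were long genes, *Ncald* (0.24 times) and *Kcnd2*, a potassium channel gene (0.27 times), and the nuclear lncRNA list was at 0.75 times. Of 325 genes that could be compared, 47 (14.5%) were at least 2 times higher and 33 (10.2%) at most 0.5 times, and of the 233 that reached the minimum on the mid-range level alone 3 were higher and 33 lower. Leaving these 108 barcodes out, an alternative added after the values were seen, lowered the difference in summed mitochondrial share from 13.1 to 9.16 percentage points. The number of genes at most 0.5 times the mid-range level then fell from 64 to 42 of 6266, and 168 genes were higher.

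Over all genes compared in each range, the largest range had the smallest share of genes past either threshold. The 321 RP-rich barcodes of 1 to 15% mitochondrial UMIs (34.97% of the low-gene barcodes) had a median of 1206 genes, 1898 UMIs and 7.24% mitochondrial UMIs. In them 24 of 6147 genes (0.39%) were at least 2 times higher and 40 (0.651%) at most 0.5 times, with a median ratio of 0.987. The OPC list stood at 0.90 times, OXPHOS at 1.02 times, heat shock at 0.81 times, and the lncRNAs opposite a coding gene at 1.13 times (1.11 to 1.16). *Actb*, cytoplasmic actin, was at 2.18 times there, against 0.11 to 0.48 times in the RP-poor ranges. The highest was *Rpgrip1* at 7.38 times on 51 UMIs, a ciliary gene that overlaps *Supt16* of the other strand. It passed only through its own level there and had to differ. On the mid-range level alone, 10 of 5687 genes (0.176%) were higher and 40 (0.703%) lower. The 63 RP-rich barcodes of 15 to 50% had few single genes past the thresholds, with 10 of 721 genes (1.39%) higher and 11 (1.53%) lower. Among the higher were *Wdr17* (9.15 times, 32 UMIs) and *Ctnna3* (5.86 times, 27 UMIs), both of which passed only through their own level there. On the mid-range level alone, 1 of 617 genes (0.162%) was higher and 11 (1.78%) lower. In these 63 barcodes *Malat1* was at 2.18 times (1586 UMIs), the lncRNAs opposite a coding gene at 2.17 times (2.06 to 2.29), and the median at 500 UMIs was 324 genes against 421. Without mitochondrial genes that median was 426 against 437, in the 54 barcodes deep enough.

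**Figure D5:**
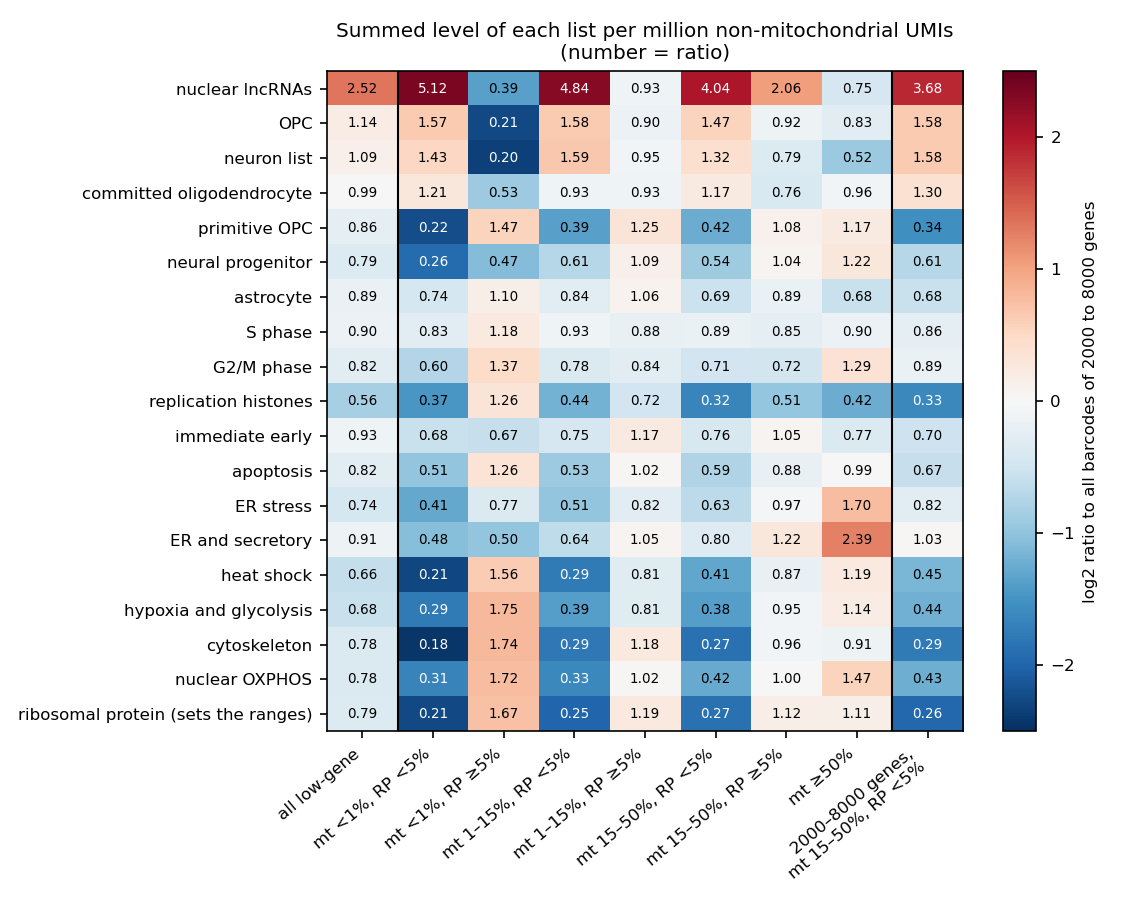
Ratio of the summed level of 19 gene lists as non-mitochondrial CPM to all mid-range barcodes (numbers; colour is log2), in all low-gene barcodes, in their 7 ranges and, in the last column, in 61 mid-range barcodes of like mitochondrial and RP shares. The nuclear lncRNA list, mostly *Malat1*, is at 4.04 to 5.12 times in the RP-poor ranges and 0.39 times in the RP-rich range with under 1% mitochondrial UMIs, where heat shock and OXPHOS genes are at 1.56 and 1.72 times.

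Stress lists were lower in sum in the low-gene barcodes on the scale of all UMIs. On that scale the median gene was itself at 0.848 times, since mitochondrial transcripts took up more of the total. Heat shock genes were at 0.569 times the mid-range level (0.555 to 0.582), with 0 of 11 tested members at least 2 times higher and 1 at most 0.5 times. That member was *Hspa8*, the constitutive Hsc70 chaperone, at 639 CPM against 1295, a ratio of 0.493 (0.465 to 0.523). *Hsp90ab1*, with the most UMIs of the list, was at 0.534 times and *Hspa4l* was the highest of the tested members at 0.893 times. The stress-inducible Hsp70 genes *Hspa1a* and *Hspa1b* were too low to be among the 11 and went the other way, with 9 UMIs at 5.74 times (2.56 to 11.2) and 11 UMIs at 7.42 times (3.61 to 13.8). Of these UMIs, 6 of 9 and 9 of 11 came from the 63 RP-rich barcodes of 15 to 50% mitochondrial UMIs, and both genes were named after their values were seen. The ER stress list stood at 0.634 times (0.613 to 0.655), the hypoxia and glycolysis list at 0.586 times, the apoptosis list at 0.705 times (0.669 to 0.741) and the immediate early list at 0.799 times (0.757 to 0.843). The immediate early list thus lay nearest to the median gene. None of the tested members of these lists was at least 2 times higher. *Jund*, an AP-1 subunit, was the lowest immediate early gene at 0.586 times, and *Ldha* and *Pgk1*, glycolytic enzymes, were at 0.479 and 0.489 times. Among apoptosis genes, *Cycs*, which encodes cytochrome c, stood at 0.608 times and *Bcl2* at 1.00 times.

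Ribosomal protein genes were lower together. Their sum was 59746 CPM against 88522, a ratio of 0.675 (0.671 to 0.679), and all 79 members lay between 0.542 for *Rpl4* and 0.845 for *Rps21*, so that none passed either threshold. *Rps2*, with the most UMIs, was at 0.683 times. On the non-mitochondrial scale the sum was at 0.785 times, and in members of at most 5% mitochondrial UMIs at 0.964 times on the scale of all UMIs. OXPHOS genes encoded in the nucleus were likewise at 0.671 times (0.660 to 0.682), opposite to the mitochondrially encoded subunits of the same complexes. The lowest of its 46 members was *Atp5f1d* and the highest *Ndufv1*, at 0.544 and 0.985 times, subunits of ATP synthase and complex I.

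Summed over all low-gene barcodes, the OPC markers were near the level of the mid-range barcodes. That sum averages over unlike barcodes, since the list was above the mid-range level in the RP-poor ranges and far below it in the RP-rich range with under 1% mitochondrial UMIs. All 14 OPC markers were detected in the low-gene barcodes, and their sum was at 0.979 times the mid-range level (0.964 to 0.994), above the median gene at 0.848. *Sox6*, with the most UMIs of the list, had 2257 CPM against 2296, *Pdgfra*, the receptor for PDGF, 243 against 256 (ratio 0.9498, 0.861 to 1.04), and *Sox10*, a lineage-defining transcription factor, was the highest at 1.27 times (1.10 to 1.46). *Olig1* was the lowest, at 411 CPM against 618, a ratio of 0.665. On the non-mitochondrial scale the list was at 1.14 times, and on the scale of all UMIs against the 1954 mid-range barcodes of at most 5% mitochondrial UMIs at 0.848 times, so its direction depended on the scale. The primitive OPC list stood at 0.737 times, with *Dll1*, a Notch ligand, highest at 1.36 times (1.05 to 1.73). The committed oligodendrocyte list, with 7 of its 8 genes found, was at 0.849 times.

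Other neural lists were at a low level in both sets of barcodes. The mature oligodendrocyte list had 213 UMIs, a ratio of 0.692 (0.602 to 0.792), and *Mag*, *Mobp* and *Mal* had 0. The astrocyte list was at 0.766 times, with *Aqp4*, *Aldh1l1* and *Gja1* at 0 UMIs and *Gfap* at 2. The neuron list was at 0.937 times, mainly *Map2* at 1108 CPM against 1264, with *Slc17a7* and *Stmn2* at 0. The neural progenitor list was at 0.683 times, lowest for *Nes*, the intermediate filament nestin, at 0.520 times.

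Of the 16 genes that the study names for these cells or the tumors, 12 could be compared and none passed either threshold. *Trp53*, which the cells were meant to lack, had 53 UMIs, 30.2 CPM against 24.8, a ratio of 1.22 (0.910 to 1.596), and *Pdgfb* had 1 UMI. Counts per gene do not show which exons were read, and *Trp53* overlaps *Wrap53* of the other strand. *Nfia*, a glial transcription factor, had the most UMIs of the list at 680 CPM against 714. *Mki67* and *Cdk1*, both of proliferating cells, were lowest at 0.612 (0.557 to 0.670) and 0.625 times. *Myc* stood at 0.646, *Sox2* at 0.691, *Top2a* at 0.694, *Olig2* at 0.842 and *Cspg4* at 1.10 times (0.915 to 1.31). *Gfap*, *Tubb3* and *Cd44* had 2, 28 and 41 UMIs, too few to compare.

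Proliferation genes were lower, and histones most of all. Of the 10 genes with the lowest ratio, 6 encode histones made in S phase. *H1f5*, a linker histone, was lowest of all at 89.3 CPM against 291, a ratio of 0.307 (0.261 to 0.360). It was followed by *H3c3* (0.348), *H2ac4* (0.352), *Ercc6l* (0.356), a mitotic helicase, *H2ac8* (0.371), *Unc119* (0.384), *H2ac24* (0.409), *Tmem35a* (0.417), *Pelp1* (0.423) and *H4c4* (0.437). The replication histone list was at 0.485 times (0.458 to 0.512), and 9 of its 12 tested genes were at most 0.5 times, against 64 of all 6470 genes (0.989%). These ratios are on the scale of all UMIs. On non-mitochondrial UMIs 6 of 6164 genes (0.0973%) were at most 0.5 times, and *H4c4* was at 0.508 times. The S phase list stood at 0.776 times and the G2/M list at 0.704 times, in which *Dlgap5*, a spindle gene, was lowest at 0.463 times.

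The low histone level was shared with mid-range barcodes just above the cutoff. On the non-mitochondrial scale the replication histone list stood at 0.564 times in low-gene barcodes (0.533 to 0.596) and at 0.573 times in the 457 barcodes of 2000 to under 3000 genes (0.548 to 0.599), both against all mid-range barcodes. The G2/M list stood at 0.819 and 0.705 times in the same order. Compared directly with the 457 barcodes on the scale of all UMIs, *H2ac4*, *H3c3* and *H4c4* were at 1.09, 1.06 and 1.06 times, so that the direction turned for them. Across the ranges the histone list ran from 0.32 times in the RP-poor range of 15 to 50% mitochondrial UMIs to 1.26 times in the RP-rich range with under 1%. In the RP-rich range of 1 to 15% it was at 0.72 times.

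Sex-linked transcripts allowed a check of mixing, since the pups were of either sex and a cell carries *Xist*, the X inactivation RNA, or Y-linked transcripts but not both. *Xist* was at 274 CPM against 182, a ratio of 1.502 (1.37 to 1.64), and the Y-linked genes *Eif2s3y*, *Uty*, *Kdm5d* and *Ddx3y* were at 1.73 (1.29 to 2.27), 1.37 (1.05 to 1.74), 1.41 and 1.16 times. At 500 UMIs per barcode, 69 of 918 low-gene barcodes (7.52%) had an *Xist* UMI and 46 (5.01%) a Y-linked UMI, and 0 had both, which allows up to 0.401%. Of the mid-range barcodes 7.75% and 3.81% had one, and 4 of 8917 had both. At 1000 UMIs both were found in 0 of the 722 low-gene barcodes deep enough and in 12 of 8917 mid-range ones. Without thinning it was 2 of 918 (0.218%) and 264 of 8917 (2.96%), at median depths of 1717 and 13771 UMIs.

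The 69 barcodes with *Xist* are the ones that should lack Y-linked RNA, and 0 of them had any at 500 UMIs, which allows up to 5.21%, against 5.01% of all low-gene barcodes. The share of barcodes with a Y-linked UMI in the wrong sex was thus not distinguishable from 0, but also not from its overall share, at this depth. *Pdgfra* was found in 93 low-gene barcodes (10.1%) and 10.99% of mid-range ones at 500 UMIs, and *Egfr* in 3.49% and 3.31%. Among the low-gene ranges, *Pdgfra* was found in 2 of the 63 RP-rich barcodes with under 1% mitochondrial UMIs (3.17%, 0.387 to 11.002%) and in 13.7% of the 321 RP-rich barcodes of 1 to 15% (10.1 to 17.96%). In the barcode sequences, 4 of 918 low-gene barcodes (0.436%) and 4 of 8917 mid-range ones (0.0449%) differed from another deposited barcode by a single base.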

How the data were processed

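Nuclei of 1 culture of BB-p53n OPCs were profiled by droplet-based single-nucleus RNA sequencing. The authors deposited a matrix of raw UMI counts for 33696 genes and 10047 barcodes, made with Cell Ranger (8.0.1) against mm39, per the submitters' processing notes. Barcodes with fewer than 2000 and over 8000 detected genes were taken from that matrix as deposited. No doublet caller was run and no barcode was otherwise removed. The members, gene lists and comparisons were chosen with earlier results of these data known, and the 7 ranges, the ER and secretory list and the alternatives without barcodes of at least 50% mitochondrial UMIs and with genes compared on the mid-range level alone after seeing the values.

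UMIs were summed per gene over low-gene and over mid-range barcodes of 2000 to 8000 genes and divided by all UMIs, or by all UMIs outside the 13 mitochondrial genes, times 1000000. A gene was compared where at least 50 UMIs (20 within a range) were observed in the low-gene barcodes or expected from the mid-range level, and called at a ratio of at least 2 or at most 0.5. Intervals for a ratio of summed counts are exact conditional binomial 95% intervals and those of shares are Clopper-Pearson. With 1 library no p-value was computed, depth ranged from 500 to 4928 UMIs per low-gene barcode, and PCR duplicates were collapsed by UMI by the authors. For detected genes and shares of barcodes, each barcode was thinned to 500 UMIs with a fixed seed.

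Genes were named by rule, namely the members of each list with the most UMIs and with the highest and lowest ratio, the 10 highest and 10 lowest of all genes compared outside the mitochondrial list, 16 genes the study names, and the sex-linked genes; exceptions are marked, and a few genes that the rule names are not reported here. Positions, spans and overlaps came from GENCODE vM39 (GRCm39), to which 33185 genes were matched. Python (3.11.15), numpy (2.4.6), scipy (1.17.1), pandas (2.3.3) and matplotlib (3.10.9) were used, and the scripts were tested on simulated counts. The samples of early and late tumors were not analysed here.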

Additional observations from a re-analysis of the deposited data

How the results depend on the processing

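No paired analysis was possible because the library is 1 sample. One library also means that no difference could be set against the spread between cultures, and the strand setting of the counting was not given. The difference in summed mitochondrial share was 13.1 percentage points and became 14.1 with each barcode weighted the same, 12.9 with members of at least 150 genes, 22.5 with members of fewer than 1000 genes, 10.7 against barcodes of 2000 to under 3000 genes and 9.16 without barcodes of at least 50% mitochondrial UMIs, an alternative chosen after seeing the data. The count of 164 higher genes became 36 with members of fewer than 1000 genes, 30 with members of at most 5% mitochondrial UMIs (fewer barcodes and genes compared in both), 403 at a minimum of 20 UMIs and 4318 at a minimum of 1 UMI. The count of 64 lower genes became 6 on non-mitochondrial UMIs, 37 against 2000 to under 3000 genes, 20 with members of at most 5% mitochondrial UMIs, 151 and 544 at those minimums, and 42 without barcodes of at least 50%.

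The ratios of the ribosomal protein, heat shock and OPC lists (0.675, 0.569 and 0.979) became 0.785, 0.662 and 1.14 on non-mitochondrial UMIs, 0.715, 0.613 and 0.923 with each barcode weighted the same, 0.682, 0.607 and 0.757 with members of fewer than 1000 genes, 0.695, 0.673 and 0.963 against 2000 to under 3000 genes, 0.709, 0.584 and 0.848 against mid-range barcodes of at most 5% mitochondrial UMIs, 0.964, 0.846 and 1.06 with members of at most 5%, and 0.701, 0.585 and 1.03 without barcodes of at least 50%. The OPC list therefore changed direction with the setting. The rise of the median log2 ratio from the shortest to the longest genes (0.64) became 0.43 with equal weights, 0.20 with fewer than 1000 genes, 0.50 against 2000 to under 3000 genes, 0.54 against and 0.22 with barcodes of at most 5%, 0.57 and -0.054 at minimums of 20 and 1 UMI, and 0.67 without barcodes of at least 50%. The difference in detected genes at 500 UMIs (-34) became -49 with fewer than 1000 genes, -26 against 2000 to under 3000 genes, -8 with at most 5%, -65.5 at 1000 UMIs, -3668 without thinning, -13 without mitochondrial genes and -25 without barcodes of at least 50%. Unless the setting itself fixes it, the cause was not tested.

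Of 102 named genes with over 3 UMIs, 75 kept their direction against 2000 to under 3000 genes, where *H2ac22*, *H2ac4*, *H3c3* and *H4c4* turned to 1.16, 1.09, 1.06 and 1.06, and 100 with members of at least 150 genes. Of the 34 of them past a threshold, 17 stayed past it against 2000 to under 3000 genes, 18 with members of at most 5% mitochondrial UMIs, 23 on non-mitochondrial UMIs and 33 with members of at least 150 genes. With members of at most 5% mitochondrial UMIs *mt-Atp6*, *mt-Co1* and *mt-Nd6* turned to 0.298, 0.395 and 0.384.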
